A study of Mus musculus with 6 samples.

Results

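Structural extracellular matrix genes were followed in colon tissue of mice with chemically induced colitis, with or without the adaptor protein Gab1 in the intestinal epithelium. The members were the protein-coding genes of the deposited table whose symbol names a collagen, laminin, nidogen, fibrillin, fibulin, emilin, thrombospondin, tenascin, matrilin, small leucine-rich proteoglycan, lysyl oxidase, collagen hydroxylase or one of a few related matrix proteins (Spp1, Sparc, Vcan, Fn1, Postn, Eln, the Fndc genes and Ccdc80 among them). Of the 2195 genes in the table, 63 met this rule, while 127 protein-coding symbols of the mouse annotation (GENCODE M21) fit the same pattern. It used symbols and no measured value. The table itself, however, was limited by the authors to genes that passed an unadjusted p of 0.05 between these groups, so every member had already been selected for a difference.

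The study sequenced poly-T selected RNA of PBS-flushed colons, in 3 libraries of Gab1fl/fl littermates, labelled WT, and 3 of Gab1IEC-KO mice, labelled KO. In the KO mice a Cre recombinase under the Villin promoter removes Gab1 from intestinal epithelial cells. Mice were 8 to 10 weeks old, and all of them had received 3% dextran sulfate sodium (DSS) in drinking water for 7 days. Both groups carry the floxed Gab1 alleles, and no library comes from an animal without DSS, so the comparison is between genotypes within colitis. The libraries are named WT1 to WT3 and KO1 to KO3 below. The labels do not say that each library is a separate mouse, so p-values measure the spread between these 6 libraries. Gab1 itself was not listed, and the deletion could not be checked on these values.

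Values are normalized counts, that is, reads counted per gene and divided by a size factor per library. In the low values, 1 read was worth 0.912 to 1.06 normalized counts, and the listed genes summed to 1957437 to 2787670 such steps per library. The full depth of the libraries is unknown. The libraries hold whole colon tissue, in which fewer cells of a type and less RNA per cell cannot be told apart.

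The extracellular matrix is the protein scaffold around cells. Fibrillar collagens form the tensile fibres of the connective tissue layers, laminins and type IV collagen build the basement membrane sheet under epithelium and around vessels and muscle, and microfibrils and elastic fibres give recoil. Lysyl oxidases cross-link these polymers, while matricellular proteins such as thrombospondin and tenascin sit in the matrix without bearing load and act on cells. In the gut most fibrillar collagen is made by fibroblasts and smooth muscle cells, and matrix is rebuilt during colitis and its repair.

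Matrix genes were higher in Gab1IEC-KO colon almost throughout. Of the 63 members, 62 had a higher mean log2 level in KO and 1, Fndc7, a lower one. Over all 2195 listed genes, 70.0% were higher in KO. Every KO library lay above every WT library for 52 members, which compares with 43.0% of all listed genes. For Fndc7 every KO library lay below every WT library, as for 19.3% of listed genes, and for 10 members the groups overlapped. The mean KO level was more than 2 times the mean WT level in 39 members, a count that was not made over all listed genes. A difference of this size was common in the table. The other listed genes higher in KO had a median log2 fold change of 1.02, where 1 stands for 2 times.

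The groups were compared with limma on log2(normalized count + 1), and a gene was called at the thresholds the study states, an unadjusted p under 0.05 with a log2 fold change beyond 1 in either direction. By that rule 34 members were called higher and 1 lower. Among all listed genes 28.5% were called higher and 9.16% lower. Without the fold change threshold 48 members were higher at an unadjusted p under 0.05 and 1 lower, beside 40.0% and 14.9% of listed genes. No member had a limma adjusted p under 0.05 when p-values were adjusted over the 16716 genes of the deposited adjustment, and the smallest was 0.384. Adjusted over the listed genes alone, the count was also 0. The median log2 fold change was 1.08 over the members and 0.79 over all listed genes. Among the genes higher in KO, the medians were 1.09 for the 62 members and 1.02 for the others.

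Library KO3 and the scaling between libraries bear on each value that follows. Calls rested on library KO3 more than on any other: without it 17 members were called higher and 1 lower, and the share of listed genes called higher was 17.3%. Without WT2 or WT3, 25 and 24 members were called higher, beside 16.9% and 14.3% of listed genes. At an unadjusted limma p under 0.05 without the fold change threshold, the count was 33 in each of these fits. The larger loss without KO3 thus came with the fold change threshold. The deposited scaling placed most listed genes higher in KO. When the libraries were instead scaled to their median listed gene, the median of all listed genes moved from 0.79 to 0.21, members with a higher level in KO numbered 58 and those lower 5, and 9 members were called higher and 1 lower. Besides Fndc7, the members lower on that scale were Col4a5, Efemp1, Fndc3b and Lamb2, at log2 fold changes of -0.04, -0.02, -0.12 and -0.04. On that scale all listed genes split into 215 called higher and 593 called lower, against 625 and 201 on the deposited scale. The listed genes were selected on this contrast and 70.0% were higher in KO. Scaling to their median thus takes out by construction a difference that most of them share. Which scale is nearer the truth cannot be told from these genes alone. The members called higher on both scales were Spp1, Lox, Thbs1, Col18a1, Col5a3, Loxl2, Tnc, Col4a1 and Vcan.

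**Figure D1:**
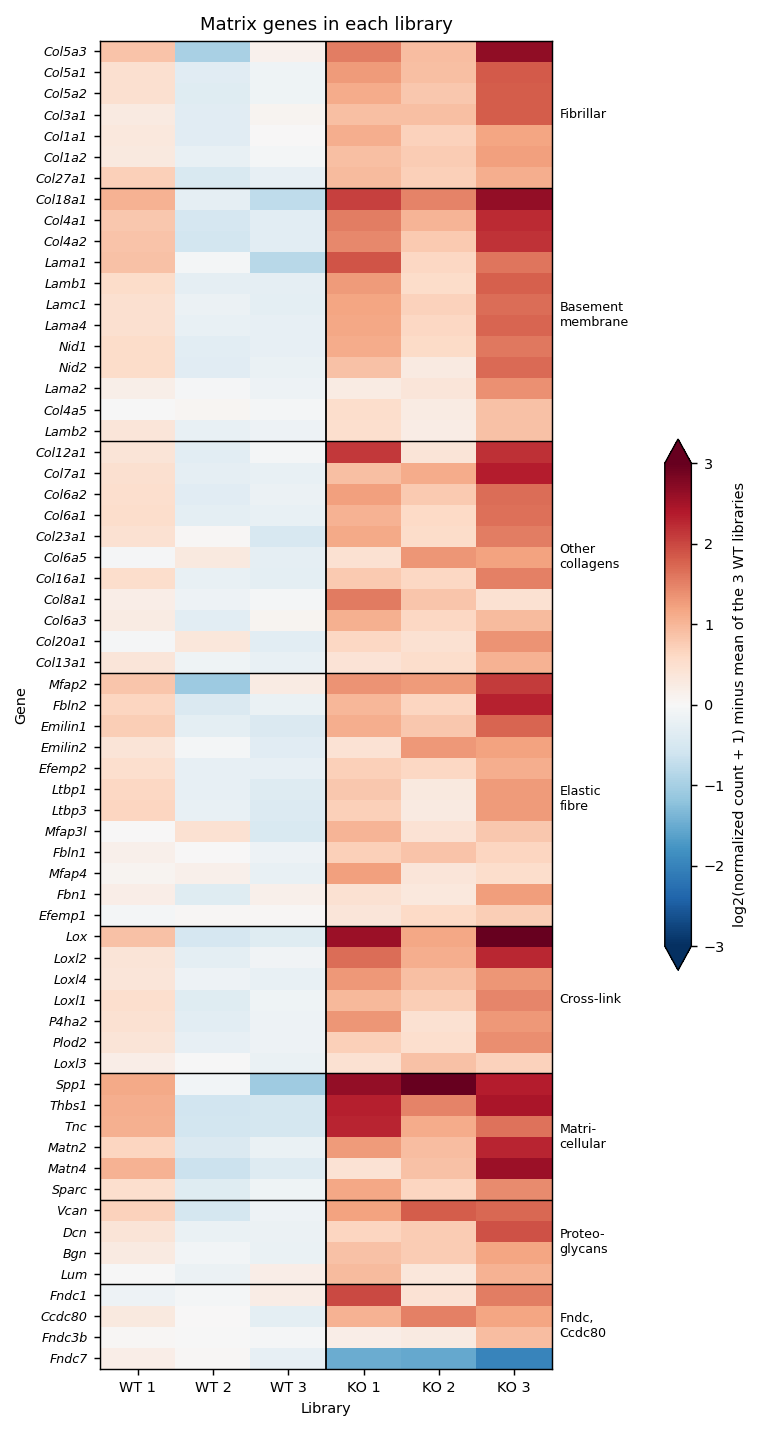
Heat map of the 63 matrix genes (rows, grouped by class) in the 6 libraries (columns). Colour is log2(normalized count + 1) minus the mean of the 3 WT libraries, and values beyond 3 in either direction have the end colour. Rows are red in the KO columns except Fndc7, KO3 is the darkest KO column for most rows, and WT1 is the reddest WT column.

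The libraries of each group were not alike in their matrix signal. KO3 had the highest value of all 6 libraries in 47 of the 63 members, KO1 in 8 and KO2 in 7. KO2 was the lowest KO library in 47 members, and WT1 the highest WT library in 55. Listed genes outside the list shared most of this order. Among genes higher in KO, KO3 was the highest library in 75.8% of the 62 members and in 61.3% of the 1474 others. In the same sets KO2 was the lowest KO library in 75.8% of the members and 67.8% of the others. WT1 was the highest WT library in 87.1% of these members and 81.7% of the others. The median ratio of KO3 to KO2 was 1.85 over the members and 1.58 over the other higher genes. WT1 exceeded the mean of WT2 and WT3 by a median factor of 1.63 over the members, against 1.52 over the others. The ratio of KO3 to KO2 was highest for Lox at 5.79, followed by Col12a1 at 3.51 and Col5a3 at 3.30. Spp1 ran the other way, with KO3 at 0.54 times KO2.

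Fibrillar collagens had 7 listed members, of 11 in the annotation, and all 7 were higher in KO at an unadjusted limma p under 0.05. The called members were 4, and log2 fold changes ran from 0.92 to 1.70 with a median of 1.21. Of all listed genes, 40.0% were higher at that p and 28.5% were called higher. Col11a1, Col11a2, Col24a1 and Col2a1 were not listed and not analysed here. The type V collagens, minor chains that set the diameter of collagen fibrils, led the class. Col5a3 (ENSMUSG00000004098, chromosome 9, 20770050 to 20815067, minus strand) measured 408, 113 and 243 normalized counts in WT1, WT2 and WT3 and 646, 429 and 1414 in KO1, KO2 and KO3 (log2 fold change 1.70, SE 0.57). KO3 was more than 2 times either other KO library, and the lowest KO library exceeded the highest WT library only narrowly. Without KO3 the log2 fold change of Col5a3 was 1.23 and it was no longer called.

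Its partner chain Col5a1 measured 1906, 1081 and 1262 normalized counts in WT1, WT2 and WT3 and 3309, 2552 and 4911 in KO1, KO2 and KO3 (log2 fold change 1.33, SE 0.31). All KO libraries were above all WT libraries, and the call held without KO3. Col5a2 measured 1816, 1025 and 1205 against 2815, 2307 and 4644 in the same order of libraries (log2 fold change 1.25, SE 0.33), again with no overlap. Without KO3 its log2 fold change was 0.96 and the call was lost. Col3a1, the type III collagen of distensible tissues, had the highest level per length of the class and measured 10967, 7233 and 9723 normalized counts in WT1, WT2 and WT3 and 17272, 17208 and 32086 in KO1, KO2 and KO3 (log2 fold change 1.21, SE 0.29). KO1 and KO2 were nearly equal for Col3a1 and KO3 was far above them, and without KO3 Col3a1 was at 0.91 and not called. The genes of type I collagen, the main tensile collagen, were less spread. Col1a1 measured 4018, 2577 and 3295 against 6930.3, 5236 and 7319 and Col1a2 6197, 4301 and 4807 against 9389, 8507 and 11845, with every KO library above every WT library. Their log2 fold changes of 0.99 and 0.96 stayed just under the threshold of 1, while their unadjusted limma p-values were 0.003 and 0.0021. Col27a1, the remaining listed member, was also under the threshold, with overlapping groups.

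Basement membrane genes had 12 listed members, all higher in KO, of which 8 were called. The shares of all listed genes were 70.0% higher and 28.5% called higher. Their log2 fold changes ran from 0.54 to 2.05 with a median of 1.18. Col18a1 (ENSMUSG00000001435, chromosome 10, 77052178 to 77166548, minus strand), whose C-terminal fragment is endostatin, showed the largest difference of the class. It measured 4599, 1839.5 and 1319.7 normalized counts in WT1, WT2 and WT3 and 9227, 6227 and 13876 in KO1, KO2 and KO3 (log2 fold change 2.05, SE 0.48). The lowest KO library was above the highest WT library, and WT1 was more than 2 times either other WT library. Type IV collagen, the network-forming collagen of every basement membrane, is encoded here by Col4a1 (ENSMUSG00000031502, chromosome 8, 11198423 to 11312826, minus strand) and Col4a2 (ENSMUSG00000031503, chromosome 8, 11312805 to 11449287, plus strand). Col4a1 measured 8717, 3513 and 3954 normalized counts in WT1, WT2 and WT3 and 14414, 10024 and 23399 in KO1, KO2 and KO3 (log2 fold change 1.60, SE 0.42), with no overlap between groups. Col4a2 measured 5883, 2209 and 2603 normalized counts in WT1, WT2 and WT3 and 8851, 5545 and 14573 in KO1, KO2 and KO3 (log2 fold change 1.47, SE 0.45), and here KO2 was below WT1.

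Both type IV genes lie head to head and their annotated spans share 22 bases, so they are shown with the promoter window of each (250 bases before to 50 after the start, RefSeq, GRCm38.p6). The Col4a1 window is chr8:11312777-11313076 on the minus strand and the Col4a2 window chr8:11312555-11312854 on the plus strand. Capitals mark the 78 bases that the windows share, written once from each strand.
Col4a1: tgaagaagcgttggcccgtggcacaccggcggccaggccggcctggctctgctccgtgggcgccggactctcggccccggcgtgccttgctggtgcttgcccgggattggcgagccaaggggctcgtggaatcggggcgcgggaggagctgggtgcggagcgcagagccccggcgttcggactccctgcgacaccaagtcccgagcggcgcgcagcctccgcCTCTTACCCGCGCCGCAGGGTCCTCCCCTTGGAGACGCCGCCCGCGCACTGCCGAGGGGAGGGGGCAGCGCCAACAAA
Col4a2: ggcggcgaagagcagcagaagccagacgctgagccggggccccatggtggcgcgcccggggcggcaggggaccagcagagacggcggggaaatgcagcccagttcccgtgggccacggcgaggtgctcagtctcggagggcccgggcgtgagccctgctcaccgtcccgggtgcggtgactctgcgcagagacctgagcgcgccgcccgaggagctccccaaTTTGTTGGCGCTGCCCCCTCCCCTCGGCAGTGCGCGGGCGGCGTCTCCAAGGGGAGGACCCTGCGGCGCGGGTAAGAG
Per kilobase of gene length, Col4a1 stood at 1.31 to 1.60 times Col4a2 over the 6 libraries, while the level of each gene spanned a range of more than 6 times. The ratio averaged 1.36 ± 0.049 in WT and 1.49 ± 0.098 in KO (SD, n = 3). All 3 KO ratios were above all 3 WT ratios, by a small margin. Whether reads were counted by strand is not stated in the sources used, and reads in the shared bases cannot be told apart.

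Laminins, the heterotrimers that start basement membrane assembly, had 6 listed chains. Lama1, Lama4, Lamb1 and Lamc1 were called higher with log2 fold changes of 1.37, 1.17, 1.21 and 1.18. Lama2 and Lamb2, chains of the laminin found around muscle, were higher by 0.66 and 0.54. Their unadjusted limma p-values were above 0.05, although both had passed the authors' own p of 0.05 like every listed gene. Nid1 and Nid2 encode the nidogens, which link laminin to type IV collagen. Nid1 was called at 1.10, and Nid2 at 0.95 was not. Col4a5, a minor type IV chain, was the other member not called. Lama1, Nid2 and Lamb2 overlapped between groups. Without KO3 none of the calls of Lama1, Lama4, Lamb1, Lamc1 and Nid1 held, with log2 fold changes of 1.25, 0.88, 0.92, 0.94 and 0.85. The epithelial laminin chains Lama3, Lama5 and Lamb3 were not listed.

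Partner chains were compared within each library as ratios of levels per kilobase, 15 ratios in all, chosen with the fold changes known. Lamb1 to Lamc1 held between 0.775 and 0.921 in all 6 libraries, and Lama4 to Lamc1 between 0.282 and 0.313. Col1a1 to Col1a2 ran from 1.13 to 1.40 with overlapping groups. Lamb2 to Lamc1 was 0.465, 0.490 and 0.558 in WT1, WT2 and WT3. In KO1, KO2 and KO3 it was 0.315, 0.362 and 0.290. These groups did not overlap, and with 3 against 3 libraries a two-sided exact permutation test cannot go below p = 0.1. Col18a1 to Col4a1 averaged 0.491 ± 0.118 in WT and 0.657 ± 0.025 in KO (SD, n = 3), without overlap. Lama2 to Lamc1 was 0.106, 0.145 and 0.145 in WT1, WT2 and WT3. In KO1, KO2 and KO3 it was 0.068, 0.104 and 0.105. Col5a1 to Col5a2 ran from 1.184 to 1.191 in WT and from 1.195 to 1.328 in KO. The groups of both ratios were apart by narrow margins only. Col4a1 to Col4a2 and Lox to Loxl1, described in other paragraphs, did not overlap either. Ratios within a library do not depend on the scaling between libraries.

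**Figure D2:**
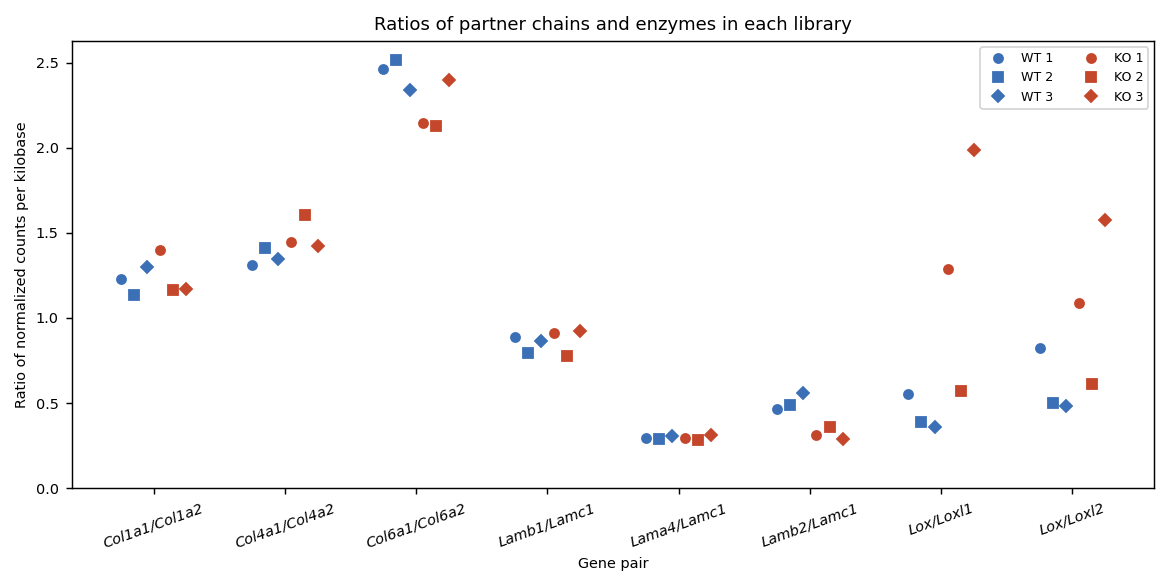
Ratios of normalized counts per kilobase for 8 gene pairs (horizontal axis) in each of the 6 libraries, blue for WT and red for KO, with marker shape giving the replicate. Lama4 to Lamc1 is nearly constant at 0.282 to 0.313, Lamb2 to Lamc1 is lower in every KO library, and Lox to Loxl1 is higher in every KO library with a wide spread.

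Collagens outside the fibrillar and basement membrane groups had 11 listed members. All 11 were higher in every KO library than in every WT library, as were 43.0% of all listed genes. Called members numbered 5, beside 28.5% of listed genes called higher. Log2 fold changes ran from 0.66 to 1.57 with a median of 0.99. Col12a1 (ENSMUSG00000032332, chromosome 9, 79598991 to 79718831, minus strand), which coats collagen fibrils, measured 1071, 654 and 784 normalized counts in WT1, WT2 and WT3 and 3571, 1073 and 3759.7 in KO1, KO2 and KO3 (log2 fold change 1.57, SE 0.49). KO1 and KO3 were more than 3 times KO2, and KO2 was level with WT1, with no gap that counting error would resolve. Col7a1, the anchoring fibril collagen of epithelia, was low and measured 33.1, 19.3 and 20.1 against 44.6, 52.1 and 125 (log2 fold change 1.46, SE 0.50). KO1 and KO2 were moderately above WT1, and KO3 was more than 2 times either. Without KO3 Col7a1 was not called.

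Type VI collagen, a beaded filament around cells, was represented by Col6a1, Col6a2, Col6a3 and Col6a5. Col6a2 measured 3362, 1865 and 2092 against 5504, 4089 and 7529 (log2 fold change 1.23, SE 0.31), and the call held without KO3. Col6a1, the most abundant of this class per length, measured 4353, 2469 and 2571 against 6213, 4579 and 9506 (log2 fold change 1.10, SE 0.33). No KO library of either gene was inside the WT range, and without KO3 Col6a1 was at 0.82 and not called. Their genes are neighbours on chromosome 10 and their ratio per kilobase stayed between 2.13 and 2.52 in all libraries. Col6a3 had a log2 fold change of 0.88 and Col6a5 of 0.99, both under the threshold. Of the other collagens, Col23a1 was called at 1.07, a call lost without KO3, and Col16a1, Col8a1, Col20a1 and Col13a1 were higher by 0.98, 0.95, 0.81 and 0.66 without being called.

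Genes of elastic fibres and microfibrils had the lowest class median. All 12 listed members were higher in KO, 7 of them at an unadjusted limma p under 0.05 and 3 called, with a median log2 fold change of 0.77. Among all listed genes 70.0% were higher, 40.0% at that p, and 28.5% were called higher. The share called in this class was smaller than that background. Mfap2, a small microfibril protein, measured 49.2, 12.2 and 32.6 against 71.1, 67.4 and 119 (log2 fold change 1.58, SE 0.56) and Fbln2, a fibulin of basement membranes and vessel walls, 749, 356 and 419 against 969.7, 753 and 2392 (log2 fold change 1.32, SE 0.48). KO2 of Fbln2 was only just above WT1, and Mfap2 separated more clearly. Emilin1, a glycoprotein at the surface of elastic fibres, measured 1875, 922 and 830.3 against 2418, 1971 and 3774 (log2 fold change 1.21, SE 0.38), where KO2 was close to WT1. None of these 3 called members was called without KO3, when Emilin1 was at 0.95. Fbln1, the most abundant of the class per length, was even between the KO libraries, with 1893, 1723 and 1537 against 2825, 3076 and 2698 normalized counts. Its log2 fold change of 0.74 (SE 0.19) was under the threshold, yet all 3 KO libraries were above all WT libraries. Fbn1, the main microfibril protein, was higher by 0.67, and the latent TGF-beta binding proteins Ltbp1 and Ltbp3 by 0.79 and 0.75, with overlapping groups for both Ltbp genes. Emilin2, Efemp2, Mfap3l, Mfap4 and Efemp1 were higher by 0.98, 0.81, 0.75, 0.71 and 0.56, none of them called. Classes were set by symbol alone, so Mfap3l need not be a fibre component. Eln, Fbn2, Fbln5, Ltbp2 and Ltbp4 were not listed.

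Enzymes that cross-link or hydroxylate collagen had 7 listed members, all higher in KO, 5 of them called. Lox (ENSMUSG00000024529, chromosome 18, 52516069 to 52529867, minus strand), the lysyl oxidase that starts cross-linking of collagen and elastin, measured 465, 177 and 194 normalized counts in WT1, WT2 and WT3 and 1499, 564 and 3265 in KO1, KO2 and KO3 (log2 fold change 2.47, SE 0.65). Every KO library was above every WT library, but the KO values spread over a factor of 5.79. Without KO3 the log2 fold change was 1.86, and the call held. Loxl2 (ENSMUSG00000034205, chromosome 14, 69609068 to 69695834, plus strand), which cross-links type IV collagen, measured 634, 397 and 450.1 normalized counts in WT1, WT2 and WT3 and 1547, 1038 and 2332 in KO1, KO2 and KO3 (log2 fold change 1.68, SE 0.34) and also held without KO3.

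Loxl4 was low, with 65.2, 44.8 and 43.1 against 125, 94.0 and 127 (log2 fold change 1.17, SE 0.35), and its lowest KO library was still above its highest WT library. Loxl1, which acts on elastin, was called at 1.06, and Loxl3 at 0.67 was not. Within libraries, Lox differed relative to Loxl1: the ratio per kilobase was 0.555, 0.388 and 0.360 in WT1, WT2 and WT3 and 1.29, 0.574 and 1.98 in KO1, KO2 and KO3. The groups did not overlap, though KO2 was just above WT1. P4ha2, a collagen prolyl hydroxylase subunit, was called at 1.03 with overlapping groups, and Plod2, the lysyl hydroxylase of collagen telopeptides, was higher by 0.87. Without KO3 Loxl1 was at 0.85 and P4ha2 at 0.89, and neither was called. P4ha1, P4ha3, Plod1 and Plod3 were not listed.

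Matricellular and adhesive glycoproteins had 6 listed members and the largest differences, with 5 called and a median log2 fold change of 1.59. The share of all listed genes called higher was 28.5%. Spp1 (ENSMUSG00000029304, chromosome 5, 104435118 to 104441050, plus strand), osteopontin, is a secreted phosphoprotein made by macrophages and epithelium among others. It measured 39.1, 16.3 and 7.66 normalized counts in WT1, WT2 and WT3 and 111, 171 and 92.1 in KO1, KO2 and KO3 (log2 fold change 2.74, SE 0.60), the largest fold change of all members. KO2 was the highest library for Spp1, every KO library was above every WT library, and all values were low. Thbs1 (ENSMUSG00000040152, chromosome 2, 118111876 to 118127133, plus strand), an activator of latent TGF-beta, measured 2865, 912 and 939 normalized counts in WT1, WT2 and WT3 and 6846, 3770.2 and 7414 in KO1, KO2 and KO3 (log2 fold change 2.09, SE 0.48). WT2 and WT3 were nearly equal, WT1 about 3 times as high, and KO2 still above WT1.

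Tnc (ENSMUSG00000028364, chromosome 4, 63959785 to 64047015, minus strand), tenascin-C, which is deposited at sites of injury, measured 2668, 869 and 877 normalized counts in WT1, WT2 and WT3 and 6173, 2739 and 3938 in KO1, KO2 and KO3 (log2 fold change 1.68, SE 0.49). KO2 was only just above WT1, and KO1 was the highest library. Sparc, a collagen-binding glycoprotein and the most abundant member per length, measured 6096, 3348 and 3915 against 9645, 6698 and 11591 (log2 fold change 1.08, SE 0.29). KO2 was close to WT1 for Sparc too, and the call was lost without KO3. Matn2, a filament-forming adaptor, measured 669, 316 and 375 against 1037, 822 and 2104 and was called higher. Matn4 at 1.29 was not, and its KO1 and KO2 values lay inside the WT range. Fn1, Postn, Thbs2, Thbs3, Thbs4 and Tnxb were not listed.

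**Figure D3:**
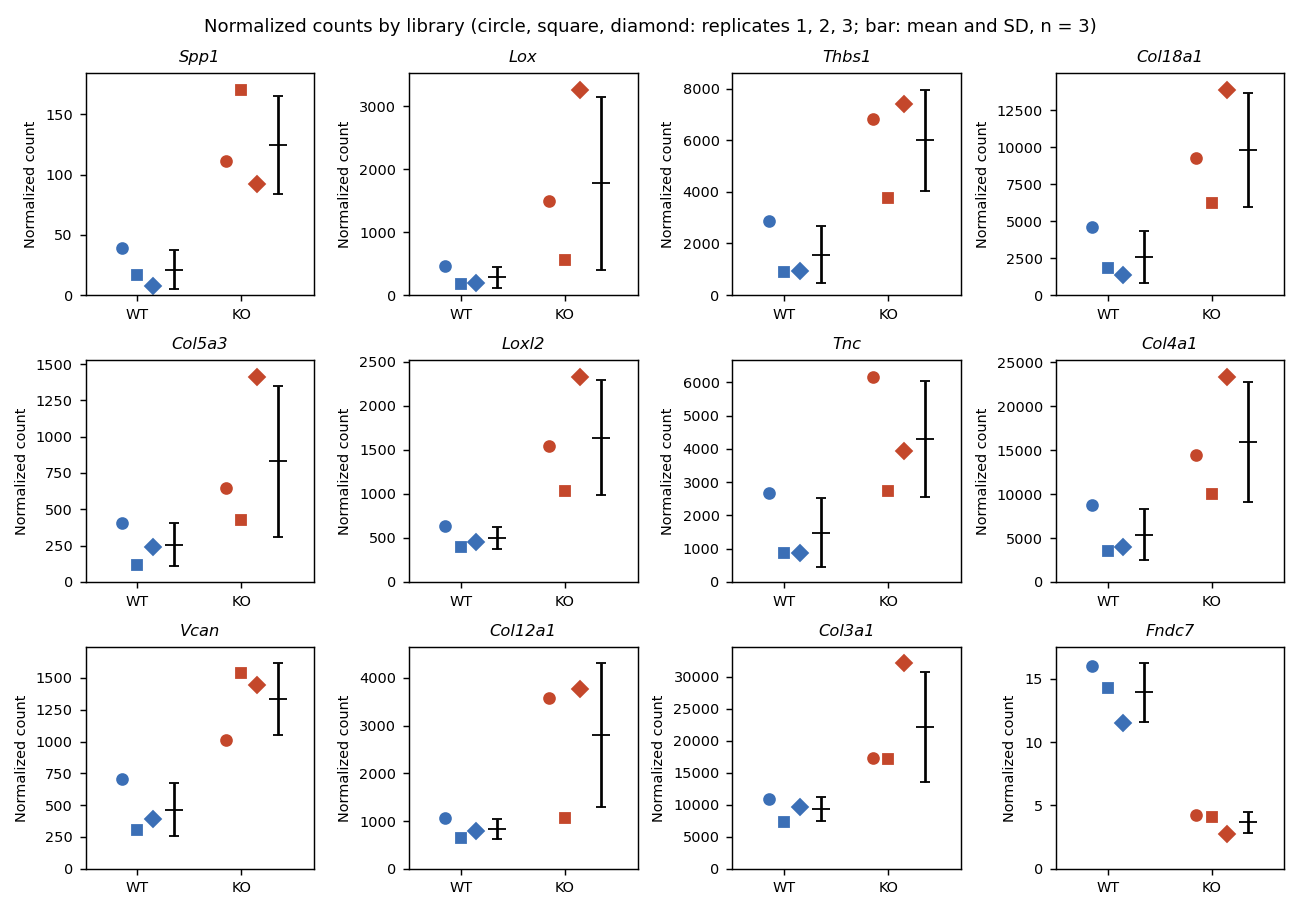
Normalized counts (vertical axes, starting at 0) of 12 matrix genes in the 3 WT (blue) and 3 KO (red) libraries, with the mean and SD of each group in black. Spp1 lies between 7.66 and 39.1 in WT and between 92.1 and 171 in KO. Fndc7 is the gene with lower KO values.

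Proteoglycans had 4 listed members, all with KO libraries above all WT libraries and all with an unadjusted limma p under 0.05. For all listed genes, the shares higher in KO by these measures were 43.0% and 40.0%. Vcan (ENSMUSG00000021614, chromosome 13, 89655312 to 89742509, minus strand), versican, a large chondroitin sulfate proteoglycan of provisional matrix, measured 702, 301 and 389.8 normalized counts in WT1, WT2 and WT3 and 1014, 1542 and 1445 in KO1, KO2 and KO3 (log2 fold change 1.59, SE 0.35). KO2 and KO3 were alike and KO1 lower, and the call held without KO3. Dcn, decorin, which coats collagen fibrils, measured 6516, 4292 and 4354 against 7714, 8443 and 18621 (log2 fold change 1.11, SE 0.36). KO1 and KO2 were not far above WT1, KO3 was more than 2 times either, and the call was lost without KO3. Bgn, biglycan, averaged 3223 ± 573 (SD, n = 3) in WT and 6169.6 ± 964 (SD, n = 3) in KO normalized counts, with a log2 fold change of 0.94 (SE 0.21), and Lum, lumican, was higher by 0.78. Dcn and Lum are neighbours on chromosome 10. Aspn, Fmod and Ogn were not listed.

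The remaining members were Ccdc80 and 3 genes named for fibronectin type III domains. Ccdc80, a secreted protein of stromal cells and fat, measured 478, 391 and 317 normalized counts in WT1, WT2 and WT3 and 803, 1109 and 881 in KO1, KO2 and KO3 (log2 fold change 1.24, SE 0.26), and Fndc1 251, 266 and 325 against 1098, 375 and 812 (log2 fold change 1.31, SE 0.41). KO2 was highest for Ccdc80 and lowest among the KO libraries for Fndc1, and groups overlapped for neither. Fndc3b, which encodes a membrane protein and not a secreted matrix component, had a log2 fold change of 0.46, the smallest difference of all members. Fndc7 (ENSMUSG00000045326, chromosome 3, 108853678 to 108890008, minus strand) was the lower one: it measured 16.1, 14.3 and 11.5 normalized counts in WT1, WT2 and WT3 and 4.24, 4.09 and 2.74 in KO1, KO2 and KO3 (log2 fold change -1.68, SE 0.40). In steps of 1 read these are 16, 14 and 12 against 4, 4 and 3, so its counting error is large.

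**Figure D4:**
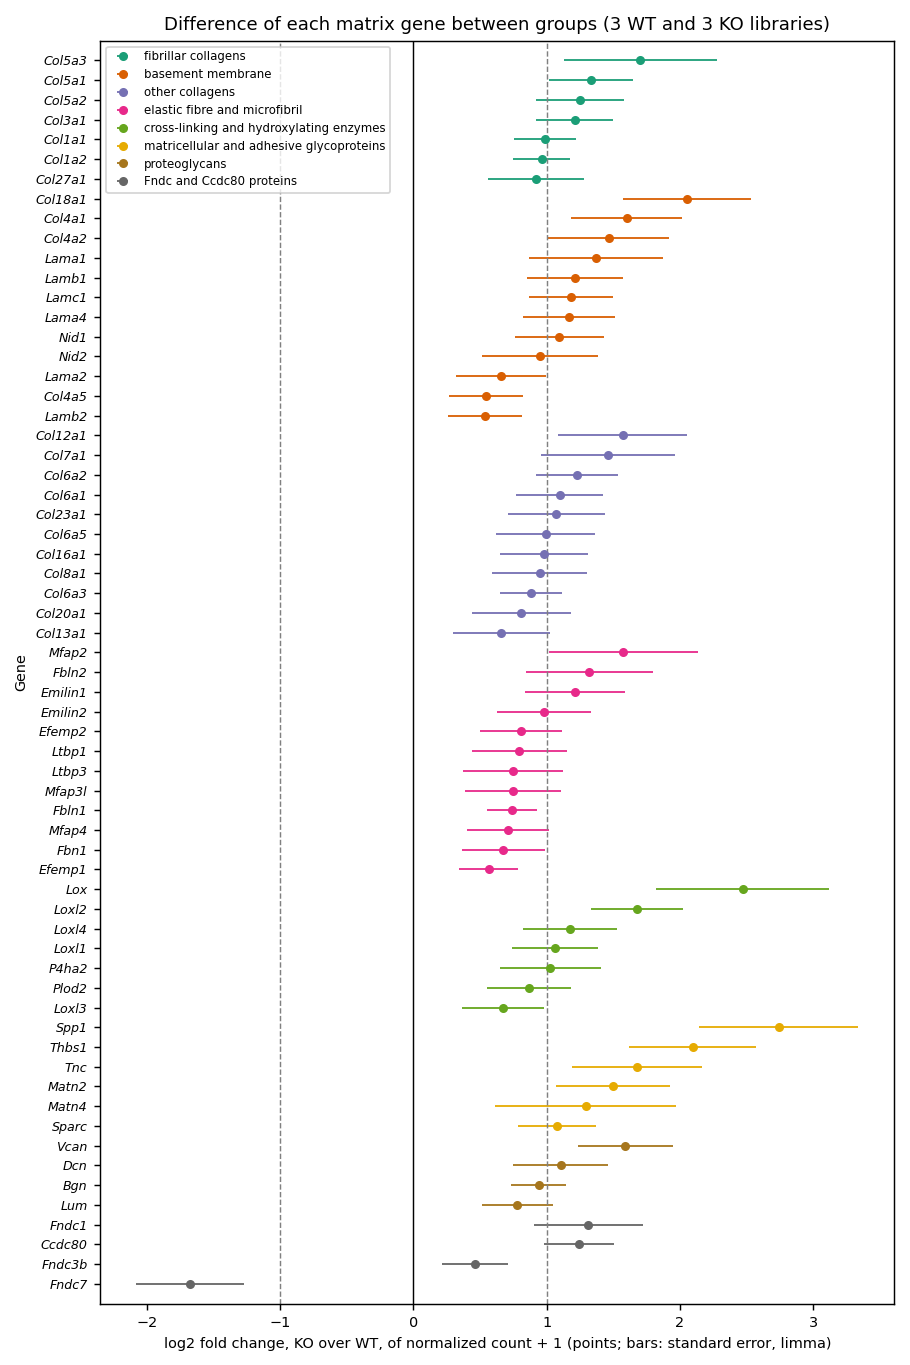
Log2 fold change of KO over WT (horizontal axis, limma on normalized count + 1) of each matrix gene, coloured by class, with bars of 1 standard error. Dashed lines mark the threshold of 1 in either direction. The 62 higher members lie between 0.46 and 2.74, and Fndc7 lies at -1.68.

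Levels of different genes were compared per kilobase of gene length, as mean ± SD of 3 libraries, and ordered by the mean over all 6 libraries. Sparc was highest, with 1176 ± 383 in WT and 2458 ± 650.4 in KO. Col3a1 followed with 948 ± 194 in WT and 2260.4 ± 873 in KO, then Col4a1 with 723 ± 387 in WT and 2136 ± 913 in KO and Dcn with 866 ± 217 in WT and 1986 ± 1044 in KO. These leading genes did not differ from their neighbours in the order by more than their spread in KO, and in WT Dcn was above Col4a1. Col6a1 came next with 715 ± 242 in WT and 1545 ± 573 in KO. At the other end Fndc7 had 2.08 ± 0.343 in WT and 0.551 ± 0.124 in KO and Col7a1 2.35 ± 0.752 in WT and 7.18 ± 4.32 in KO.

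**Figure D5:**
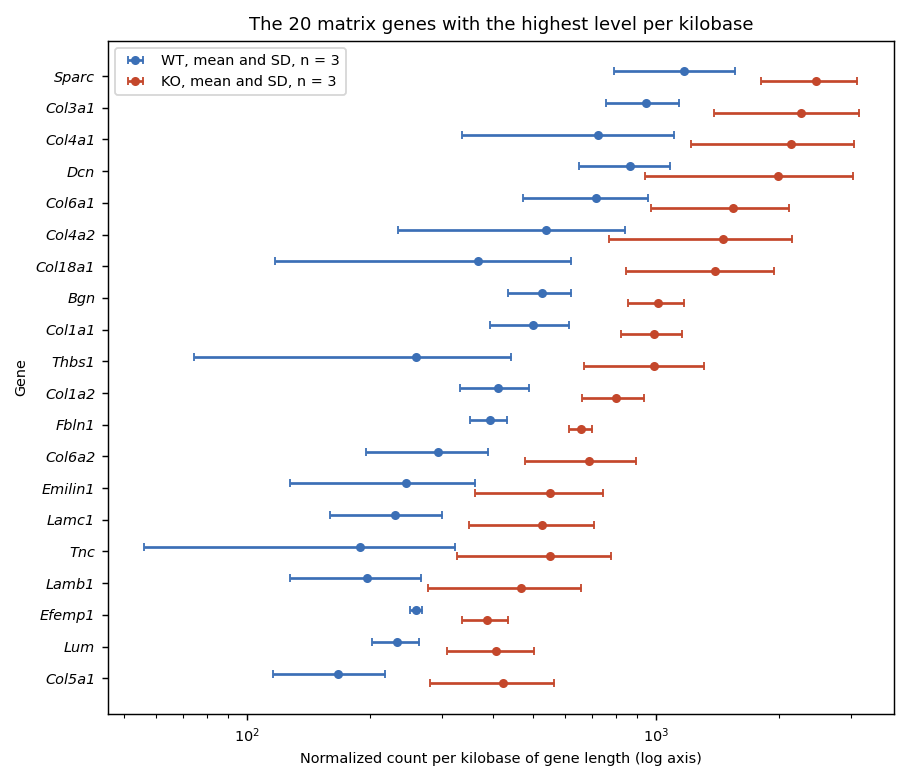
Mean and SD (n = 3) of the normalized count per kilobase of gene length, on a log axis, of the 20 matrix genes with the highest level, WT in blue and KO in red. Sparc leads with means of 1176 and 2458, and each KO mean is to the right of its WT mean.

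The 44 members with a promoter entry in the RefSeq table (GRCm38.p6) gave 57 windows of the same length as above. Their median GC content was 60.3%, against 52.7% over 32851 windows. Of 9 motifs searched on both strands, GGGCGG, the letters of a GC box, was in 64.9% of the members' windows and in 35.7% of all windows. The other motifs differed less. In the members' windows and in all windows, CAGACA was found in 31.6% and 21%, CCAAT in 31.6% and 37.4%, and TATAAA in 12.3% and 13.6%. For ACGTG or GCGTG the shares were 45.6% and 43.8%, for GGAATG 14% and 14.7%, for TGANTCA 5.26% and 7.81%, for TTCNNNGAA 5.26% and 8.3%, and for the CArG box 1.75% and 1.63%. Windows of Col18a1 (chr10:77166481-77166780, minus strand) and Col5a3 (chr9:20815018-20815317, minus strand), the leading genes of their classes, are printed as examples. They were picked because they hold GGGCGG or its reverse complement, so a match in them was given in advance. Each held 3 matches, in capitals here. Spp1, the member with the largest fold change, had a promoter entry without this motif. A match is a description of letters, and binding was not measured.
Col18a1: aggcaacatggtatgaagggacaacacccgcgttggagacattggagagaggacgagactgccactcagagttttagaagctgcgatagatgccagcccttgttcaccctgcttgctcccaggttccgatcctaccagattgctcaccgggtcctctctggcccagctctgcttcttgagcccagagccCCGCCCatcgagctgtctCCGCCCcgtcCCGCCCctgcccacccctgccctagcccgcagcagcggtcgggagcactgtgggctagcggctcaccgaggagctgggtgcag
Col5a3: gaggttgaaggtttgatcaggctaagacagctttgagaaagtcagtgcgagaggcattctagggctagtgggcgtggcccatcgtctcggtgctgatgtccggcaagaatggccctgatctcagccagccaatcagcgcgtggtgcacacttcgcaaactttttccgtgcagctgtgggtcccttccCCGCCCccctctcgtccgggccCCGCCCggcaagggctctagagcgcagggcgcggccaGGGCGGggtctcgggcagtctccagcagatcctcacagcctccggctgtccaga

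Members were spread over 19 chromosomes, with 4 pairs that have no protein-coding gene between them: Col3a1 and Col5a2, Col6a1 and Col6a2, Dcn and Lum, and Col4a1 and Col4a2. Another annotated gene overlaps an exon of 22 members, and with strand use in counting not given, reads of such partners may be shared.

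Genes that act with these proteins but lie outside the rule were read against the same background, in which 70.0% of listed genes were higher and 28.5% called higher. The collagen folding and processing list had 15 of its 24 genes in the table, all higher in KO, with 2 called (Adamts3 and Fkbp10), a smaller share than the background, and a median log2 fold change of 0.85. Adamts3, a procollagen N-propeptidase, measured 34.1, 13.2 and 21.1 against 47.7, 44.9 and 99.4 (log2 fold change 1.45, SE 0.51), and its relative Adamts14 was higher by 1.20 without passing the test. Serpinh1, the collagen chaperone HSP47, measured 1753, 1221 and 1895 against 3352, 2855 and 1828, and KO3, the library highest for most collagens, was its lowest KO library and inside the WT range. Of 37 further matrix glycoproteins and proteoglycans, 15 were listed, 15 higher and 10 called, with a median of 1.30. Cthrc1, secreted by activated fibroblasts, was at the level of 1 or 2 reads in WT and measured 14.9, 7.15 and 9.12 in KO1, KO2 and KO3 (log2 fold change 2.07, SE 0.45). Wisp1, a matricellular protein of the CCN family, measured 81.3, 49.9 and 43.1 against 242, 122 and 216 (log2 fold change 1.71, SE 0.42). Npnt, nephronectin, measured 81.3, 37.7 and 42.1 against 333, 62.3 and 178 (log2 fold change 1.60, SE 0.64), with overlapping groups.

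Matrix receptors showed smaller differences. Of 29 receptors 11 were listed, all higher in KO, with only Mrc2, the collagen uptake receptor, called at 1.07 and a list median of 0.70. Itga5, a fibronectin receptor chain, was higher by 1.09 with overlapping groups and was not called. Itgb1, the common beta chain of collagen and laminin integrins, measured 9512, 6863 and 6848 against 13799, 8723 and 11984 (log2 fold change 0.56, SE 0.23), and the groups overlapped. The TGF-beta pathway, the best known inducer of matrix genes, had 12 of 24 genes listed, with 6 called higher and a median of 0.94. Inhba, an activin subunit, measured 80.3, 48.9 and 46.9 against 435, 218 and 205 (log2 fold change 2.22, SE 0.42), with every KO library above every WT library. For the ligand gene Tgfb1 the values were 747, 688 and 592 against 794, 963 and 910.3 (log2 fold change 0.40, SE 0.22). Smad4 was the only listed gene of this pathway that was lower, at -0.37.

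Markers of the cells that could carry this RNA were read as whole lists, against the same background of 70.0% higher and 28.5% called higher. Fibroblast markers had 10 of 16 genes listed, all higher in KO and 6 called, with a median log2 fold change of 1.14. Their summed level was 12469 to 21771 normalized counts in WT and 29889 to 39567 in KO. More than any other gene, C3, which other cell types also make, filled this sum, with 12274, 8462 and 8749 against 13741, 18413 and 21682. Pdgfra, Pdgfrb and Thy1 were among the listed ones and Grem1, Twist2 and Dpep1 differed most, at 2.06, 1.97 and 1.61. Macrophage markers had 6 of 12 listed, with 2 called higher (Itgam at 1.71 and Fcgr1 at 1.32) and a summed level of 2808 to 3412 in WT and 4283 to 7311 in KO. Endothelial markers had 5 of 11 listed and 0 called by limma, with 0 at an unadjusted p under 0.05, and summed to 2745 to 4638 in WT and 4212 to 8193 in KO, so the groups overlapped. None of 10 smooth muscle, 15 epithelial or 7 mesothelial markers was listed, and the labelled tissue could not be checked on epithelial genes there. The endothelial and macrophage sums and the fibroblast sum were highest in WT1 and KO3 within their groups, the libraries that were highest for most matrix genes. The sum over all listed genes was also highest there, at 2119942 normalized counts in WT1 and 2542646 in KO3, with WT3 close to WT1 at 2111394. This order is thus not particular to these markers. The macrophage sum was nearly equal in WT1 and WT2, at 3412 and 3391. The part of these markers in the matrix differences was not tested.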

How the data were processed

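RNA of 6 colon samples (3 WT, 3 KO) was compared as labelled. The submitters' processing notes name HISAT2 2.0.5 for alignment and featureCounts 1.5.0-p3 for counting. The notes name the build hg18, but gene IDs are mouse and 2113 of 2195 deposited coordinates equal those of GENCODE M21 (GRCm38). The deposited values are a signal for each gene in each library: the authors scaled gene counts by 1 size factor a library. They also gave gene lengths, which served here for levels per kilobase. Their deposited log2 fold changes and group means were not used, and the deposited p-values and adjusted p-values served only to learn that the table holds genes with p under 0.05 and that the adjustment ran over 16716 genes. Their tool is not stated in the sources used. A further deposited table of the authors' fold changes and p-values was not used. No sample column was left unmapped.

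All listed genes were fitted with limma 3.58.1 (R 4.3.3) on log2(normalized count + 1), with a variance trend and no covariate, after a test on simulated data. Benjamini-Hochberg adjustment counted 16716 genes. Since the table was selected on the same contrast, no p-value from it is independent of that selection. The pseudocount of 1 understates differences of low genes. Alternatives were a pseudocount of 0.1, a minimum mean of 10 normalized counts, no fold threshold, a replicate block, leaving out each library and, chosen after seeing the data, no variance trend and 2 other scalings. Full depth is unknown, so no counting interval is given.

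The members, classes and lists were chosen with earlier results of these data known. Genes were named by a rule: in each class the 3 largest absolute log2 fold changes and the highest level per kilobase, every lower member, and up to 3 genes of each other list. Further genes named, among them Col1a1, Col1a2, the laminin chains, Serpinh1, Itgb1 and Tgfb1, and the ratios were chosen after their values were seen. Promoter windows and their motifs came from RefSeq (GRCm38.p6). Motifs were searched on both strands. Some results are not reported here.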

Additional observations from a re-analysis of the deposited data

How the results depend on the processing

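The number of called members was 35 and ranged from 18 (without KO replicate 3) to 49 (without WT replicate 1) when each library was left out. Their median log2 fold change ranged from 0.87 to 1.30, and the count of members without overlap from 53 to 62. Fndc7 was called lower and 62 members were higher in each of these fits. A pseudocount of 0.1 gave 36 called members, a minimum mean of 10 gave 34, no fold threshold gave 49, no variance trend gave 35 and scaling to the sum of the listed genes gave 28. Scaling to the median listed gene gave 10 called members, a median log2 fold change of 0.49 and 22 members without overlap, with Col4a5 at -0.035, Efemp1 at -0.017, Fndc3b at -0.12 and Lamb2 at -0.043. This scaling takes out by construction a difference that most of the selected genes share. The cause was not tested. No setting gave a member an adjusted p under 0.05 by limma, beside 49 at an unadjusted p under 0.05 in the reported fit.

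With the replicate number as a block, 35 members were called, and 705 listed genes were called higher and 246 lower, against 625 and 201 without it. Deviations of same-numbered libraries correlated at 0.198, 0.3 and -0.14, and WT1 correlated more with KO3 (0.272) than with KO1, so the numbers were not taken to pair the libraries. The planned count models were not run. Depth is unknown, and low members such as Fndc7 and Spp1 rest on few reads.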

Other observations

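Markers of enteric glia, the support cells of the gut's nervous system, were also higher in KO. Gfap, the glial intermediate filament, measured 243, 47.8 and 76.6 normalized counts in WT1, WT2 and WT3 and 374, 287 and 390.4 in KO1, KO2 and KO3 (log2 fold change 1.84), and limma called it at an unadjusted p under 0.05. Every KO library was above every WT library for Gfap, and WT1 was the highest WT library, as for most matrix genes and 61.9% of all listed genes. S100b, Sox10 and Gap43 had higher mean levels in KO and were not called. The part of glial RNA in the matrix differences was not tested.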
